A study of Mus musculus with 4 samples.

Results

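The interferon-stimulated genes described here are a list of 35 mouse genes, given by symbol, whose products make up the antiviral state. A gene entered when the array annotation gave it a probe set of its own, and its probe set with the highest mean signal over the 4 arrays stood for it. Of the 35 genes, 33 had such a probe set, out of 18193 genes in the whole series. No single-gene probe set was found for Isg15 or Ifi44. Mx1 and Mx2 lay below the filter on dim signals, a signal of 25.3, which left 31 genes for testing among 11677.

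Expression had been measured on 4 Affymetrix arrays of total RNA from cells labelled as collecting lymphatic endothelium. Human 293EBNA cells, an embryonic kidney line, had been grown as flank tumours in mice to 2000 mm3. They carried the empty Apex vector (2 arrays) or the vector with VEGFD (2 arrays), the gene of a lymphatic growth factor. Vessels draining the tumour were found with a dye, microdissected, and magnetically sorted for endothelium. All 4 samples thus came from tumour-bearing mice, and none of them was a tumour-free control. The labels state neither the strain nor the age of the mice, nor whether a replicate pooled animals. The extraction text names lymph node endothelium where the other labels name collecting lymphatics. Signals below are linear array intensities given first for Apex replicates 1 and 2 and then for VEGFD replicates 1 and 2. Differences are on the log2(signal + 16) scale.

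Interferons are secreted proteins that bind receptors on nearly all nucleated cells and act through JAK kinases. For type I interferon this leads to a complex called ISGF3, of which STAT2 and IRF9 are subunits. That complex binds the interferon-stimulated response element (ISRE) in promoters. Interferon gamma acts mainly through a different element, the gamma-activated site (GAS). Endothelium responds to both kinds of interferon, and many of the genes have a low basal level that needs no infection.

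Apex replicate 2 stood apart from the other arrays in its cell type markers. The summed signal of 12 pan-endothelial markers was 773, 4406, 1207 and 490, and on these arrays 6, 12, 6 and 3 of the 12 exceeded 25.3. Emcn, the gene of endomucin, gave 2670 of the 4406, and the other 11 genes summed to 725, 1736, 1101 and 466. Of these 11, 8 were highest on Apex replicate 2, while Tek, an angiopoietin receptor gene, had 101, 43.9, 86.1 and 20.3. The signal of Pecam1, the gene of the adhesion protein CD31, was 2.92, 141, 3.25 and 2.22, and the lymphatic regulator Prox1 had 11.2, 11.6, 3.19 and 5.94. On 3 arrays Pecam1 was below the filter signal, as were Cdh5 (13.0, 4.23 and 3.11) and Erg (1.07, 1.23 and 1.48). These defining genes therefore bore out the endothelial label on Apex replicate 2 alone, and Prox1 did so on no array. On the other arrays 6, 6 and 3 of the 12 pan-endothelial markers still exceeded 25.3. The 10 fibroblast markers summed to between 21832 and 24431 on the 4 arrays. No marker was at 0 on any array. In RNA of a mixed cell suspension, fewer cells of a type and less RNA per cell cannot be told apart.

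The interferon-stimulated genes varied together between arrays, and most widely between the 2 Apex arrays. Of the 31 tested genes, 23 had their lowest signal on Apex replicate 2, where 24.8% of all tested genes did. VEGFD replicate 2 was lowest for 7 (35.5%), Apex replicate 1 for 1 (16.1%) and VEGFD replicate 1 for 0 (23.5%). Apex replicate 1 held the highest signal for 16 of the 31 (18.5% of all), VEGFD replicate 1 for 11 (22.3%), VEGFD replicate 2 for 3 (29.6%) and Apex replicate 2 for 1 (29.7%), which was Ifitm3. Between the Apex arrays, 29 of 31 genes were lower on replicate 2 (48.4% of all tested genes), 19 were at least 2-fold lower (2.69%) and 0 at least 2-fold higher (2.29%). The median difference was -1.27 over the 31 genes and 0.015 over all genes. Between the VEGFD arrays, 24 of 31 were lower on replicate 2 (52.6% of all), 4 of them at least 2-fold (6.56%) beside 2 at least 2-fold higher (5.53%), with a median of -0.50 against -0.036 over all genes. Each of these is a difference between single arrays, so it has no test.

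**Figure D1:**
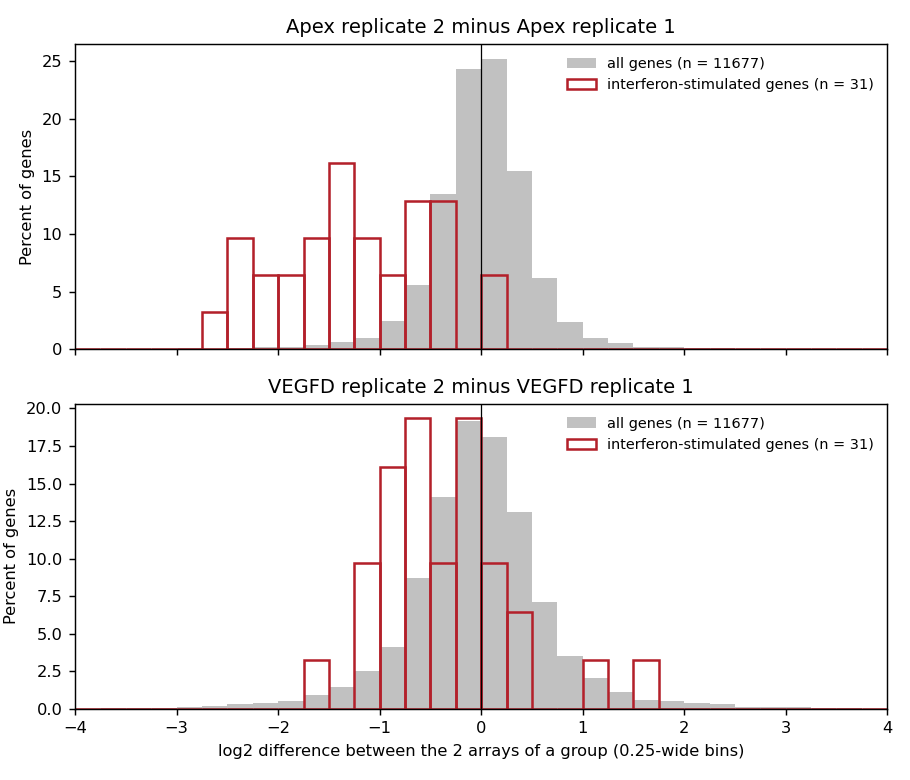
Distribution of log2 differences between the arrays of each group, as a percent of genes in 0.25-wide bins, for all 11677 tested genes (grey) and the 31 interferon-stimulated genes (red outline); the axis is drawn from -4 to 4 and a few of all genes lie outside it. In the Apex panel the red outline lies almost wholly left of 0, with a median of -1.27, while in the VEGFD panel its median is -0.50.

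Arrays with like levels of these genes crossed the groups. VEGFD replicate 1 and Apex replicate 1 differed by a median of -0.041 over the 31 genes, with 17 of 31 lower on the VEGFD array (52.2% of all genes), 1 at least 2-fold lower (2.25%) and 1 at least 2-fold higher (0.985%). VEGFD replicate 1 exceeded Apex replicate 2 by a median of 1.09, with 2 of 31 lower (53% of all genes), 16 at least 2-fold higher (4.28%) and 0 at least 2-fold lower (5.56%). VEGFD replicate 2 lay between. From Apex replicate 1 it differed by a median of -0.55, with 28 of 31 genes lower (53.3% of all), 5 at least 2-fold lower (7.31%) and 1 at least 2-fold higher (4.71%). From Apex replicate 2 it differed by a median of 0.83, with 7 of 31 lower (53.8%), 12 at least 2-fold higher (5.93%) and 0 at least 2-fold lower (8.35%).

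**Figure D2:**
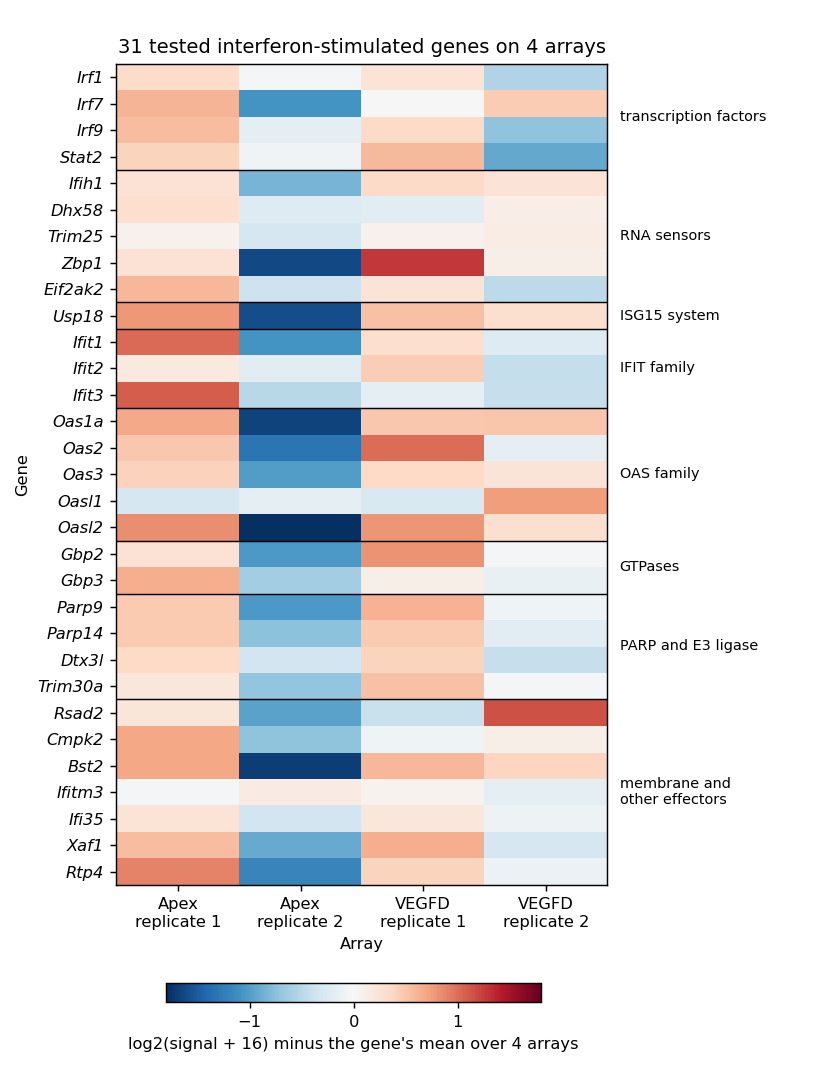
Heat map of the 31 tested genes (rows, grouped by role) on the 4 arrays (columns), coloured by log2(signal + 16) minus the gene's own mean over the arrays, with colours saturating at 1.8 in either direction. The Apex replicate 2 column is blue for most genes, and Oasl1 and Ifitm3 are the 2 genes that are not lower there than on Apex replicate 1.

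No interferon-stimulated gene passed the comparison of VEGFD with Apex arrays, whose p values measure only the spread between these samples. In limma, with Benjamini-Hochberg adjustment over 11677 genes, 0 of 31 had an adjusted p below 0.05 (0% of all tested genes), and their adjusted p values ran from 0.823 to 0.994. At an unadjusted p below 0.05 there were again 0 of 31, where 5.7% of all genes stood. The difference was above 0 for 22 of 31 genes (46.4% of all) with a median of 0.30, against -0.035 over all genes. Centring the arrays on their medians moved all genes by 0.12 and gave 26 of 31 above 0 (59.3% of all genes under that centring), with the median of the 31 genes still 0.33 above that of all genes. The groups did not overlap for 1 of 31 genes in the higher direction (16.6% of all) and 0 in the lower (21.8%), and 0 were also 2-fold apart (3.88%).

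That positive median depended on Apex replicate 2. Without this array 7 of 31 genes were above 0 (47.2% of all) and the median was -0.30. Without Apex replicate 1 there were 27 of 31 (45.8% of all) and a median of 0.96. Leaving out VEGFD replicate 1 gave 18 of 31 (46.2% of all) and a median of 0.12, and leaving out VEGFD replicate 2 gave 25 of 31 (47.5%) and 0.41. By limma 0 of 31 passed in each of these 4 fits, where 0% of all genes passed when either Apex array was left out, 3.19% when VEGFD replicate 1 was and 0.0343% when VEGFD replicate 2 was. Counts at an unadjusted p are not given for these fits, since no share over all genes was computed for them. The groups were 2-fold apart without overlap for 15 of 31 genes without Apex replicate 1 (8.26% of all genes), for 1 without Apex replicate 2 (3.79%), for 2 without VEGFD replicate 1 (11.5%) and for 3 without VEGFD replicate 2 (4.92%). For 30 of the 31 genes the difference changed sign or moved by over 1.5 times without Apex replicate 2, and likewise for 30 without Apex replicate 1, Oasl1 being the exception in both. Leaving out either VEGFD array did so for 22 of 31. These counts were not made over all genes, so they have no background to be read against. The arrays of a group move a difference equally far in opposite directions when left out, so their counts are not separate. In these fits the lone array of a group is assumed to vary like the others.

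**Figure D3:**
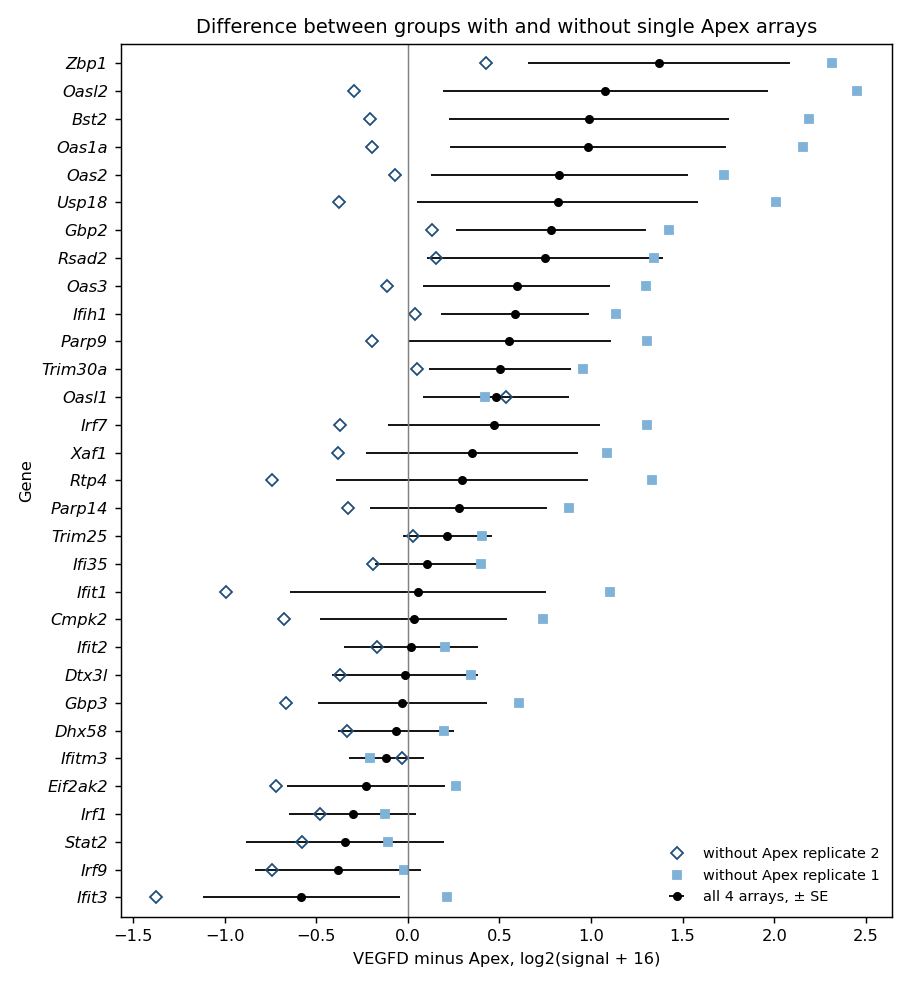
VEGFD minus Apex difference of each tested gene on the log2(signal + 16) scale, with all 4 arrays (black, bars are the SE of the limma fit), without Apex replicate 2 (open diamonds) and without Apex replicate 1 (light squares). Every black point has an adjusted p of at least 0.823, and the diamonds lie at or below 0.54 while the squares reach 2.45.

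The transcription factor genes of the pathway did not share 1 pattern. Irf7, the factor that amplifies type I interferon production, had signals of 273, 74.4, 176 and 245 and a difference of 0.47 ± 0.58 (SE, n = 2 and 2; limma adjusted p = 0.874). Apex replicate 2 was low, and the VEGFD values lay inside the Apex range. Stat2, a subunit of ISGF3, had 130, 89.6, 149 and 42.2, and Irf9, its DNA-binding partner, had 395, 234, 340 and 154. Irf1, an early interferon gamma target that is itself a transcription factor, had 233, 179, 219 and 120. For these 3 genes the lowest array was VEGFD replicate 2, their differences were -0.34 ± 0.54, -0.38 ± 0.45 and -0.30 ± 0.35, and the groups overlapped. The second Stat2 probe set had a difference of 0.29, the opposite sign.

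Among genes of nucleic acid sensing, Zbp1 had the largest difference of the whole list. Zbp1 encodes a sensor of Z-form nucleic acid that can trigger necroptosis. Its signals were 200.3, 42.5, 419 and 178, a difference of 1.37 ± 0.72 (SE; limma adjusted p = 0.823), and VEGFD replicate 2 lay below Apex replicate 1. Leaving out Apex replicate 2 gave a difference of 0.43, and leaving out Apex replicate 1 gave 2.31. Ifih1, which encodes the double-stranded RNA sensor MDA5, had 282, 123, 299.6 and 281, so that Apex replicate 2 alone was low, and its difference was 0.59 ± 0.40. Dhx58, the gene of the related protein LGP2, had 68.4, 42.5, 44.5 and 58.5. Eif2ak2, which encodes the RNA-activated kinase PKR, had 379, 184, 291 and 172 on its brightest probe set, with replicate 2 of each group low. The next brightest had 205, 96.0, 201 and 216, so it was highest on VEGFD replicate 2. Its difference was 0.51, against -0.23 for the brightest. The dimmest Eif2ak2 probe set varied less, with 180, 151, 175 and 159 and a difference of 0.019. Trim25, a ubiquitin ligase gene that acts on the sensor RIG-I, was the 1 gene of the 31 without overlap, with 565, 431, 565 and 586 and a difference of 0.22 ± 0.24. The 2 middle values, one from each group, were nearly equal.

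Of the 5 genes of the oligoadenylate synthetase family, 4 had their lowest signal on Apex replicate 2. The active enzymes of this family respond to double-stranded RNA by making the messenger that activates RNase L. Oas1a had signals of 492, 83.4, 427 and 428, 5.11-fold higher on Apex replicate 1 than on Apex replicate 2 as a ratio of signal + 16. The other 3 arrays of Oas1a lay close together. Oas2 had 115, 21.7, 171 and 67.0, and Oas3 had 51.4, 9.31, 49.2 and 43.6. Oasl2, an oligoadenylate synthetase-like gene, had 363, 40.3, 352 and 242, which gave the largest difference between the Apex arrays in the list, -2.75. Oasl1, a paralog of it, did not follow, with 58.7, 64.8, 60.0 and 138, and only VEGFD replicate 2 stood out. All 5 differences between groups were above 0, from 0.48 for Oasl1 to 1.08 ± 0.88 for Oasl2, but without Apex replicate 2 only that of Oasl1 was.

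Usp18, the enzyme that removes ISG15 from proteins and dampens interferon receptor signalling, had signals of 502, 83.2, 419.7 and 350.3. Its difference between groups was 0.82 ± 0.77 and its difference between the Apex arrays -2.38. The IFIT genes encode proteins that bind RNA and block its translation. Ifit1 had 513, 108, 305 and 205, and Ifit3 had 1009, 324, 413 and 348. In both, Apex arrays held both the highest and the lowest signal, so that both VEGFD values lay inside the Apex range. Ifit3 had the lowest difference of the list, -0.58 ± 0.54 (SE; limma adjusted p = 0.838). Ifit2 varied less, with 335, 255, 406 and 215 and a difference of 0.018 ± 0.36.

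Guanylate-binding proteins are large GTPases that attack membranes around pathogens and answer strongly to interferon gamma. Gbp2 had signals of 410.5, 158, 610.1 and 334 and a difference of 0.78 ± 0.52, and Gbp3 had 156, 55.3, 102 and 84.0 and -0.029 ± 0.46. Apex replicate 2 was the lowest array for both, and the groups overlapped. The dynamin-like antiviral GTPase genes Mx1 and Mx2 were not tested. Mx1 had 0.683, 1.70, 8.39 and 24.5, and no Mx2 signal exceeded 10.004.

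Parp9 and Dtx3l, whose products form a complex of an ADP-ribosyltransferase and a ubiquitin ligase, are neighbours in the RefSeq gene table. Parp9 had signals of 400.1, 131, 448 and 268, and Dtx3l had 299, 176, 306 and 168. Both were high on replicate 1 of each group and low on replicate 2 of each. Parp14, another ADP-ribosyltransferase gene, had 157, 58.9, 158 and 93.5, and Trim30a, of the TRIM ubiquitin ligase family, had 478, 248, 599.96 and 408. Their differences between groups were 0.55 ± 0.55 for Parp9, -0.015 ± 0.40 for Dtx3l, 0.28 ± 0.48 for Parp14 and 0.50 ± 0.39 for Trim30a. The Trim30a difference was 0.050 when Apex replicate 2 was left out.

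The membrane protein genes split. Bst2, which encodes tetherin, a protein that holds budding virions to the cell surface, had signals of 985, 174, 918 and 789 and was 5.26-fold higher on Apex replicate 1 than on Apex replicate 2 on the same scale. Ifitm3, which encodes a protein that blocks viral fusion in endosomes, had 6883, 7772, 7307 and 6224, a difference of -0.12 ± 0.20, and was the 1 gene of the list highest on Apex replicate 2. Rsad2, the gene of the radical-SAM enzyme viperin, had 93.6, 32.2, 55.7 and 192. Cmpk2, a mitochondrial nucleotide kinase gene next to Rsad2, had 70.1, 16.3, 34.6 and 41.4. Both were lowest on Apex replicate 2, but Rsad2 was highest on VEGFD replicate 2 and Cmpk2 on Apex replicate 1. Ifi35 had 2244, 1489.8, 2182 and 1773, and Rtp4, a receptor transporter gene, had 719.6, 159, 507 and 355. The representative Ifi35 and Trim25 probe sets have names that end in _s_at, Affymetrix's mark for probes shared between transcripts.

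Xaf1, the gene of a binding partner of the apoptosis inhibitor XIAP, was the case where probe sets disagreed most. Its brightest probe set had signals of 659, 228, 704 and 356, and the other had 34.6, 814, 22.9 and 34.6. The first was lowest on Apex replicate 2 and the second was high on that array alone. Over the list, 15 further probe sets of 11 genes lay above the filter, and 14 of the 15 had the same sign as the representative one for the difference between Apex arrays. For the difference between groups 10 of 15 did.

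Promoter sequences are shown because ISGF3 acts through a known element. RefSeq promoters (GRCm38.p6) were matched by symbol for 26 of the 35 genes and searched over the 250 bases before the transcription start. The ISRE was searched as GAAA, any 2 bases and GAAA again, the GAS as TTCNNNGAA, on both strands. An ISRE match stood in 11 of 26 genes, or 42.3%, against 3.46% of the 27025 genes with a promoter and 3.07% of the tested genes with one. A GAS match stood in 5 of 26, or 19.2%, against 8.13%. The genes were listed as interferon-stimulated, so these shares describe the list and not the arrays. The following are the last 160 bases before the start of 5 genes with an ISRE match and of Irf1 with a GAS match, 5′ to 3′ on the gene's strand, with the matches of the element named in capitals.
Ifit1: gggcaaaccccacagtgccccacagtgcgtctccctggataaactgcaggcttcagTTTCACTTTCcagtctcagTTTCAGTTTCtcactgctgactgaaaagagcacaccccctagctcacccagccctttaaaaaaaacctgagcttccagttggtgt
Ifit3: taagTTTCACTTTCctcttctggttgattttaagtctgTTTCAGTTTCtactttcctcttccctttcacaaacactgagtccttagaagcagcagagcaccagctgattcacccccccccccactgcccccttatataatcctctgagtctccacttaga
Oas1a: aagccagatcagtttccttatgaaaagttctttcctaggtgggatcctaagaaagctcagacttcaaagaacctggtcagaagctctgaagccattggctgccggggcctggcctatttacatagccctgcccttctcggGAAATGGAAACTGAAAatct
Bst2: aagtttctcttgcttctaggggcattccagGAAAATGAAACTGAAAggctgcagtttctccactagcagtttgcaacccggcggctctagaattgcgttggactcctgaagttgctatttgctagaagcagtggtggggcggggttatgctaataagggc
Gbp2: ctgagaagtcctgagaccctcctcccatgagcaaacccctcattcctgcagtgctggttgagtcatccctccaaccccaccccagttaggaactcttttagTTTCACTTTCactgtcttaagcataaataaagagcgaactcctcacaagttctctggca
Irf1: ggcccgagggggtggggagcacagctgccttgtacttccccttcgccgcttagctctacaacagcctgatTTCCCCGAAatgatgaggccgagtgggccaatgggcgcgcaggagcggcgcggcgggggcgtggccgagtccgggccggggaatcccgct
These lie at chr19:34640729-34640888 (plus strand) for Ifit1, chr19:34583369-34583528 (plus strand) for Ifit3, chr5:120907526-120907685 (minus strand) for Oas1a, chr8:71537473-71537632 (minus strand) for Bst2, chr3:142620503-142620662 (plus strand) for Gbp2 and chr11:53769854-53770013 (plus strand) for Irf1. Ifit1 and Ifit3 each hold 2 separate matches, whereas the 2 matches of Oas1a and of Bst2 overlap into 1 longer stretch. In Oas1a that stretch begins 20 bases before the start and in Bst2 130 bases before it. Oas1a and Bst2 each also hold 1 GAS match that the capitals do not mark, and the one in Bst2 shares 3 bases with its ISRE matches. Among tested genes, the median difference between the Apex arrays was -1.35 for the 10 with an ISRE match and -0.72 for the 14 without one, a description of these promoters and not a test of the element. For GAS it was -0.98 for the 5 with a match and -1.19 for the 19 without one. Oasl2, with the largest difference, and Ifitm3, with almost none, both had a promoter in the table and no ISRE match in this window.

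Genes upstream of the response were measured too. Of 6 interferon genes with a probe set, 0 passed the filter, and Ifnb1, the gene of interferon beta, had 26.0, 29.5, 26.1 and 15.1. Of 13 tested receptor and JAK-STAT genes, 9 were above 0 in VEGFD against Apex arrays (46.4% of all genes) and 4 below. Their median was 0.19, and 0 passed. That median was 0.065 without Apex replicate 2. Jak1, the kinase gene shared by interferon receptors, had 1358, 933, 2237 and 1472 (0.68 ± 0.32), and Ptpn2, a phosphatase gene that restrains the kinases, had 631, 597, 900.2 and 927 (0.56 ± 0.21). Both were higher on each VEGFD array than on either Apex array, and the Jak1 difference was 0.41 without Apex replicate 2 and 0.38 without VEGFD replicate 1. The Ifngr1 difference was -0.43 without Apex replicate 1, and the Tyk2 difference -0.17 without VEGFD replicate 1. Ifngr1, a chain of the interferon gamma receptor, had 586, 417, 325 and 289 (-0.66 ± 0.26), and Tyk2, a kinase gene of the type I receptor, had 141, 149, 103 and 127 (-0.30 ± 0.25), again without overlap. Of the 13 genes, 3 were without overlap in the higher direction (16.6% of all genes) and 2 in the lower (21.8%). Their lowest limma adjusted p was 0.823. Between the Apex arrays this list had a median of -0.20, with 9 of 13 lower on replicate 2 (48.4% of all genes).

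Of 14 tested genes of nucleic acid sensors, adaptors and IRF activation, 7 were above 0 (46.4% of all genes) and 7 below. Their median of 0.013 was -0.056 without Apex replicate 2, and 0 passed. The groups did not overlap for 2 in the higher direction (16.6% of all genes) and 2 in the lower (21.8%). Sting1, the adaptor gene of cytosolic DNA sensing, had a difference of 0.63 ± 0.33, and Tlr3, a receptor gene for double-stranded RNA in endosomes, 0.46 ± 0.35. Without Apex replicate 2 these were 0.41 and 0.054, and without VEGFD replicate 2 the Sting1 difference was 0.34. Without Apex replicate 1 the Tlr3 difference was 0.87. Ikbke, a kinase gene that activates IRF proteins, had -0.55 ± 0.28 and Tlr9, an endosomal DNA receptor gene, -0.28 ± 0.27. Of the 14 genes, 4 were lowest on Apex replicate 2 (24.8% of all genes) and 6 on VEGFD replicate 2 (35.5%). The list had a median difference of -0.20 between the Apex arrays. At least 2-fold lower on replicate 2 was 1 of 14 genes (2.69% of all genes). That gene, Ddx58, encodes the sensor RIG-I, was named after its value was seen, and had signals of 413, 193, 368 and 339.

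A further 45 tested interferon-stimulated genes outside the list of 35 were measured. On Apex replicate 2, 23 of the 45 had their lowest signal (24.8% of all genes), on VEGFD replicate 2 14 (35.5%), on VEGFD replicate 1 5 (23.5%) and on Apex replicate 1 3 (16.1%). Between the Apex arrays 36 of 45 were lower on replicate 2 (48.4%) and 16 at least 2-fold lower (2.69%), with a median of -0.83. Against Apex arrays, VEGFD arrays had 28 of 45 above 0 (46.4%) and 17 below, a median of 0.11, and 0 passed. Without Apex replicate 2 the median was -0.20. Plac8, a gene of a small cysteine-rich protein, had signals of 2543, 225, 3604 and 3901 and a difference of 2.26 ± 1.06 (SE; limma adjusted p = 0.823). Without Apex replicate 2 the Plac8 difference was 0.56, and without Apex replicate 1 it was 3.96. It was the 1 gene of the 45 that was 2-fold apart without overlap (3.88% of all genes). Without regard to size, 4 of 45 did not overlap in the higher direction (16.6%) and 8 in the lower (21.8%). Slfn8, of the schlafen family, had 97.6, 10.98, 126 and 86.2 (1.12 ± 0.70), with a difference of 0.087 without Apex replicate 2 and 2.16 without Apex replicate 1. Ifitm1 (-0.61 ± 0.32) and Tap1, the peptide transporter gene of antigen presentation (-0.56 ± 0.30), were lowest. Tap1 was among the 9 of 45 genes that were not lower on Apex replicate 2 than on Apex replicate 1, with 107, 170, 90.7 and 83.1, and its difference was -0.26 or -0.86 when Apex replicate 2 or 1 was left out. The Ifitm1 difference was -0.34 without Apex replicate 1.

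Genes that answer mainly to interferon gamma were counted too. The 9 tested were GTPase genes, the chemokine gene Cxcl10 and Cd274, and 2 of the 9 are also among the 45. Lowest on Apex replicate 2 were 6 of the 9 (24.8% of all genes), with a median difference of -0.99 between the Apex arrays. In VEGFD against Apex arrays 7 were above 0 (46.4% of all genes) and 2 below. Their median of 0.23 was -0.13 without Apex replicate 2, and 0 passed. Ifi47 (0.69 ± 0.52) and Igtp (0.44 ± 0.43), both immunity-related GTPase genes, had the highest differences. Without Apex replicate 2 these were 0.19 and -0.13, without Apex replicate 1 they were 1.19 and 1.02, and that of Ifi47 was 0.12 or 1.26 when VEGFD replicate 1 or 2 was left out. Iigp1 (-0.64 ± 0.25), another of that family, did not overlap between groups and had 239, 302, 179 and 154, so it was highest on Apex replicate 2. It was 1 of 9 without overlap in the lower direction (21.8% of all genes), beside 1 in the higher (16.6%), which was Cd274. Gbp6 had -0.41 ± 0.83, which ran from -1.54 without VEGFD replicate 1 to 0.72 without VEGFD replicate 2.

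**Figure D4:**
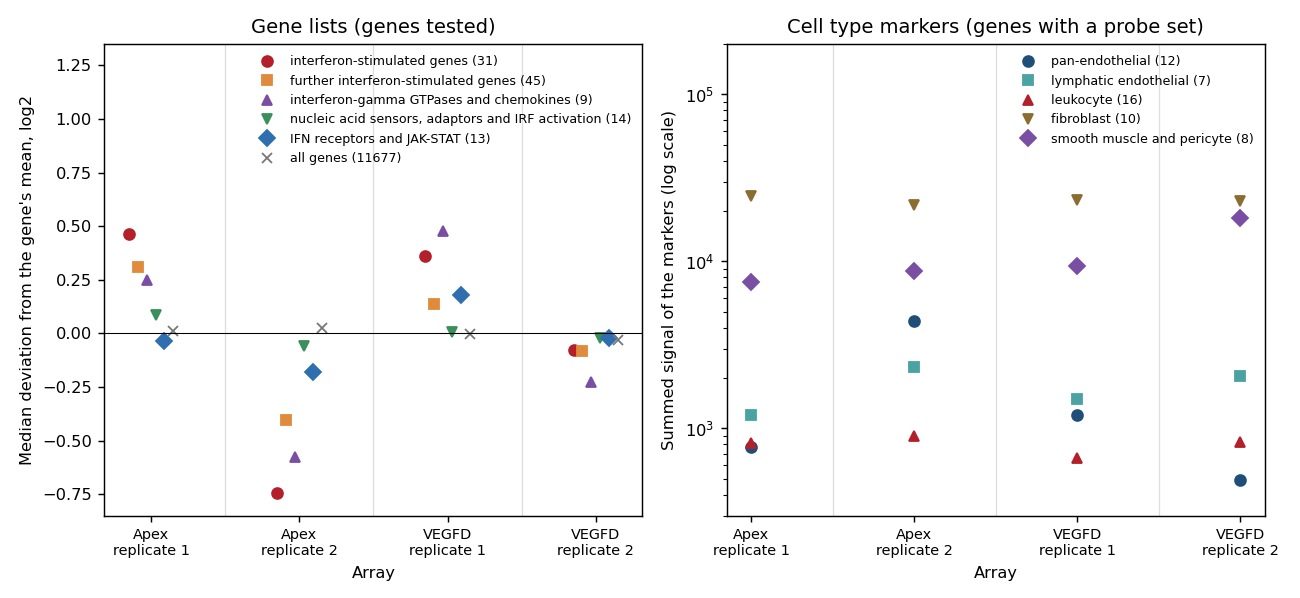
Left, the median over each gene list of log2(signal + 16) minus the gene's mean over 4 arrays, by array, with the number of tested genes in brackets. Right, the summed signal of 5 cell type marker lists on a log axis, with the number of genes with a probe set. Every plotted interferon list has its lowest median on Apex replicate 2, from -0.060 for the sensor list to -0.74 for the interferon-stimulated genes. For the sensor list the median on VEGFD replicate 2 is close to that, at -0.023. The pan-endothelial sum is highest on that array at 4406, of which Emcn gives 2670.

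Marker sums of the cell types differed between arrays in different directions and degrees, and their part in the pattern was not tested. Apex replicate 2, lowest for most interferon-stimulated genes, had the highest pan-endothelial sum, with Emcn or without it. Lymphatic endothelial markers summed to 1204 and 2336 on the Apex arrays and 1501 and 2060 on the VEGFD arrays (7 genes with a probe set, 4 above the filter). Pdpn alone gave 963, 1622, 1237 and 1715 of these sums. Of the 4 tested lymphatic genes, 3 were highest on Apex replicate 2 (29.7% of all genes) and 1 on VEGFD replicate 2 (29.6%). Leukocyte markers summed to 813 and 898 on Apex arrays and to 664 and 826 on VEGFD arrays, of which Csf1r alone gave 503, 472, 335 and 558. Of the 16 leukocyte genes 5 passed the filter, and Ptprc, which encodes the pan-leukocyte protein CD45, was at most 13.0 on any array. Fibroblast markers (10 genes, 8 above the filter) summed to between 21832 and 24431, but single genes differed more than the sum. Dpt had 2725, 2407, 204 and 168, and Col1a1 had 2491, 862, 2034 and 3342. Of the 8 tested fibroblast genes, 5 were above 0 in VEGFD against Apex arrays (46.4% of all genes) and 3 below. Smooth muscle markers (8 genes) summed to 7506 and 8734 on Apex arrays and 9311 and 18266 on VEGFD arrays. Adipocyte markers (5 genes) summed to 6294 and 8046 against 3802 and 3118, and epithelial markers (8 genes) to 698 and 968 against 647 and 231.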

How the data were processed

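The deposited table gives a linear intensity for each probe set; how it was summarised is not stated in the labels. From the deposited values, each array had a trimmed mean of 150.0 (2% of probe sets off each end) and a median signal between 23.8 and 30.4. Of 45101 probe sets, 64 were controls, 34945 had 1 gene symbol in the platform annotation, 932 several and 9160 none. Values were used as log2(signal + 16), which understates changes of dim genes. Genes whose brightest probe set had a mean below the non-control median were not tested. VEGFD and Apex arrays, 2 each, were compared in R 4.3.3 by limma 3.58.1 (eBayes with an intensity trend, two-sided, Benjamini-Hochberg, threshold 0.05), checked on simulated data. An exact permutation test of 2 against 2 cannot go below p = 0.333. The replicates are labelled biological, and the labels do not say that equal numbers pair. Their deviations correlated at 0.20 across genes. The number of arrays limits precision.

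The genes and lists were chosen with earlier results of these data known. All 35 genes were accounted for. Of other lists, genes past the threshold were named, or else the 2 highest and 2 lowest differences; any other name was picked with its value known. The count of lowest arrays was added after the values were seen. Alternatives covered scaling, pseudocount, probe sets, filter, trend, replicate block and leaving out each array. Python 3.11.15 and matplotlib 3.10.9 made the tables and plots.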

Additional observations from a re-analysis of the deposited data

How the results depend on the processing

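No interferon-stimulated gene passed the threshold under any alternative that was run, which with 2 arrays in a group says nothing about stability or about the lack of a difference. With the replicate number as a block, 0 of the 31 passed by limma and the direction of all 31 was as without it, while 6 genes passed over all 11677; the median of the 31 stayed 0.30. Over all genes the count past the threshold ran from 0 to 372 with 1 array left out, against 0 with all arrays, and the count of listed genes 2-fold apart without overlap ran from 1 to 15, against 0. The 15 came without Apex replicate 1, when the only Apex array was replicate 2, the lowest array for 23 of the 31. Lack of overlap is a weaker demand with 1 array in a group, so these counts and the 0 are unlike. The cause of the low values on Apex replicate 2 was not tested. The median of the list ran from -0.30 to 0.96 with 1 array left out, and from 0.23 to 0.42 under other scalings, pseudocounts, probe set rules and filters. Sign changes over all genes were not counted. With 1 array left out, 25 of the 31 listed genes changed sign in at least 1 fit, 15 of them without Apex replicate 2. These values ran from -0.69 to 0.092 for Irf1, -0.37 to 1.31 for Irf7, -0.91 to 0.15 for Irf9, -1.10 to 0.41 for Stat2, -0.33 to 0.20 for Dhx58, -0.72 to 0.26 for Eif2ak2, -0.38 to 2.01 for Usp18, -0.99 to 1.11 for Ifit1 and -0.42 to 0.45 for Ifit2. They ran from -1.38 to 0.21 for Ifit3, -0.19 to 2.16 for Oas1a, -0.070 to 1.72 for Oas2, -0.11 to 1.30 for Oas3, -0.031 to 0.99 for Oasl1, -0.30 to 2.45 for Oasl2, -0.66 to 0.60 for Gbp3, -0.20 to 1.31 for Parp9 and -0.33 to 0.88 for Parp14. For the remaining genes they ran from -0.42 to 0.39 for Dtx3l, -0.021 to 1.52 for Rsad2, -0.68 to 0.74 for Cmpk2, -0.21 to 2.19 for Bst2, -0.19 to 0.40 for Ifi35, -0.38 to 1.09 for Xaf1 and -0.74 to 1.33 for Rtp4. The other 6 genes kept their sign but not their size: 0.039 to 1.13 for Ifih1, 0.027 to 0.41 for Trim25, 0.43 to 2.31 for Zbp1, 0.13 to 1.42 for Gbp2, 0.050 to 0.96 for Trim30a and -0.23 to -0.0014 for Ifitm3.

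Under median centring the differences turned to 0.057 for Dhx58, 0.093 for Gbp3, 0.11 for Dtx3l and 0.0059 for Ifitm3, and under quantile normalization to 0.040 for Dhx58 and 0.020 for Gbp3. With averaged probe sets Xaf1 was -0.93, from the disagreement of its probe sets, and Eif2ak2 0.10. With a pseudocount of 64 Cmpk2 was -0.025. Of genes highest on Apex replicate 2 there were 0 under median centring or quantile normalization and 2 with averaged probe sets, against 1. Of genes highest on VEGFD replicate 2 there was 1 with the stricter filter, against 3, and of genes lowest on Apex replicate 1 there were 2 with no filter and 0 with the stricter one, against 1. The median of the receptor and JAK-STAT list was -0.00017 with averaged probe sets. That of the sensor list was 0.14 under median centring and ran from -0.097 to 0.099 with 1 array left out. Where not stated, the cause was not tested. Array signals carry no detection call here, so signals near 25.3 have no known limit against background.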
